A study of Mus musculus with 12 samples.

Results

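Iron recycling in the spleen rests on red pulp macrophages, which engulf worn red blood cells, split their heme and return the iron to the blood. Heme oxygenase 1 (Hmox1) opens the heme ring, ferroportin (Slc40a1) exports iron from the cell, the ferritin heavy and light chains (Fth1, Ftl1) store it, and the transferrin receptor (Tfrc) brings transferrin-bound iron in. Activated, dividing T cells are known to depend on Tfrc for their iron supply, and Spic is the transcription factor on which the development of red pulp macrophages depends. The 10 genes described here are Slc40a1, Hmox1, Spic, Vcam1, Cd163, Fth1, Ftl1, Tfrc, Slc11a1 and Slc11a2, of 45777 genes in the deposited table. They were chosen by gene symbol from a table whose values across the treatments were already known, so their differences between groups are descriptions and carry no test.

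CD4+ T cells were taken from the spleens of wild type C57BL/6 mice, aged 7 weeks by the sample labels. The study's methods give an older age range for its mice. The cells were separated with CD4-coated magnetic beads, and no further sort is described. Every group, the controls included, received anti-CD3 at 0.5 µg/ml for 3 days. The study's methods for isolated CD4+ T cells also name soluble anti-CD28, which the sample labels do not, so its presence in these cultures is uncertain. The 4 groups were no drug (Control), metformin, FK506 (tacrolimus, which inhibits the phosphatase calcineurin) and both drugs (Metformin+FK506), with 3 samples in each. Drug doses for these cultures are not given in the sources used here, nor is it stated whether the 3 samples of a group came from separate mice or cultures, so the spread between them may be technical. Poly(A) RNA was sequenced to between 43402632 and 64290105 counted reads per sample. Levels are given as FPKM, which scale reads to transcript length and library size and can therefore be compared between genes.

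The label of CD4+ T cells was checked against marker genes. The summed level of 10 T cell markers was 2261 ± 17.8 FPKM in Control, 2324 ± 33.9 with metformin, 2356 ± 64.3 with FK506 alone and 2504 ± 61.3 with both drugs (SD, n = 3). The markers in that sum went different ways: with FK506 against Control 5 rose and 5 fell at an adjusted p under 0.05 in edgeR (41.3% and 39.6% among all genes tested), with Trac, the T cell receptor alpha constant chain, going from 315 to 577 FPKM and Cd2, an adhesion receptor, from 423 to 212 FPKM. Markers of other cells differed more. The sum of 10 monocyte and macrophage markers was 49.1 ± 1.95 FPKM in Control, 77.5 ± 3.43 with metformin, 1508 ± 28.0 with FK506 alone and 969 ± 68.1 with both drugs. The 8 B cell markers summed to 48.7, 68.3, 761 and 356 FPKM in the same order, and the 7 dendritic cell markers to 2.77, 4.77, 65.5 and 42.5 FPKM. The 8 neutrophil markers summed to 0.0416, 0, 38.4 and 20.6 FPKM, the 4 marginal zone macrophage markers to 0.233, 0.873, 120 and 118 FPKM, and the 9 endothelial and stromal markers to 9.93, 10.5, 50.5 and 61.1 FPKM. The marginal zone marker Cd209b and the endothelial marker Lyve1 were at 0 in all 12 libraries. Red cell precursors were close to absent by their markers: 10 erythroid genes together reached 3.77 ± 0.492 FPKM at most, with both drugs. The 2 genes of the CD8 co-receptor summed to between 7.05 and 13.1 FPKM in the 4 groups. In bulk RNA, a larger share of one cell type cannot be told apart from more of its RNA per cell. The part of these cell types in the members' differences was not tested.

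Several of these mRNAs are known to carry an iron-responsive element, a short hairpin that iron regulatory proteins bind when cellular iron is low. In the 5′ UTR of an mRNA the bound hairpin blocks translation, and in the 3′ UTR of Tfrc it protects the transcript from decay. The sites are shown because Fth1, Ftl1 and Slc40a1 carry the hairpin at one end of the mRNA and Tfrc at the other. A search of the transcripts of 21875 genes (GENCODE annotation of GRCm38) used a bulged C, 5 bases, the loop CAGTGN with a last base other than G, and 5 bases that pair with the first 5. It matched the 5′ UTR of 21 genes (0.096%) and the 3′ UTR of 98 genes (0.448%). Among the members it matched the 5′ UTR of Fth1, Ftl1 and Slc40a1 once each and the 3′ UTR of Tfrc 4 times. The windows are 29 bases long, on the strand of the gene, with the loop in capitals.

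Fth1, chr19:9982732-9982760 (plus strand): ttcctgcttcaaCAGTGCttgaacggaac
Ftl1, chr7:45459779-45459807 (minus strand): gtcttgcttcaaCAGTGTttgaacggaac
Slc40a1, chr1:45925465-45925493 (minus strand): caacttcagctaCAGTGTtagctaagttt
Tfrc site 1, chr16:32631219-32631247 (plus strand): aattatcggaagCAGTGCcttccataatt
Tfrc site 2, chr16:32631598-32631626 (plus strand): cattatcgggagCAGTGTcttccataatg
Tfrc site 3, chr16:32631663-32631691 (plus strand): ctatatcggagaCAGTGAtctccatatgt
Tfrc site 4, chr16:32631710-32631738 (plus strand): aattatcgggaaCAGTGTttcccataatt

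A match is a description of the letters, and no binding or translation was measured here. The pattern is strict, so a gene without a match may still carry a hairpin. RNA levels of the matched members went in different directions, as given for each gene below. Fth1, Ftl1 and Slc40a1 were higher in both FK506 groups than in Control, and Tfrc was lower. Slc11a2, an iron transporter without a match, was also higher in both FK506 groups than in Control.

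Of the 10 genes, 9 passed the filter on low values (0.5 FPKM or more in 3 or more libraries, which left 15197 genes), and Cd163 did not. A gene that is high in only some groups can pass because of those groups alone. Against Control, FK506 had 8 of the 9 past the threshold as higher and 1 as lower (adjusted p under 0.05 in edgeR's quasi-likelihood test over all 15197 genes), where 41.3% of all genes were past it as higher and 39.6% as lower. The same 8 and 1 were counted for both drugs against Control (42.1% and 39.6% of all genes) and for both drugs against metformin (40.3% and 37.9%). Nothing is read from these counts, because the members were chosen on these values.

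**Figure D1:**
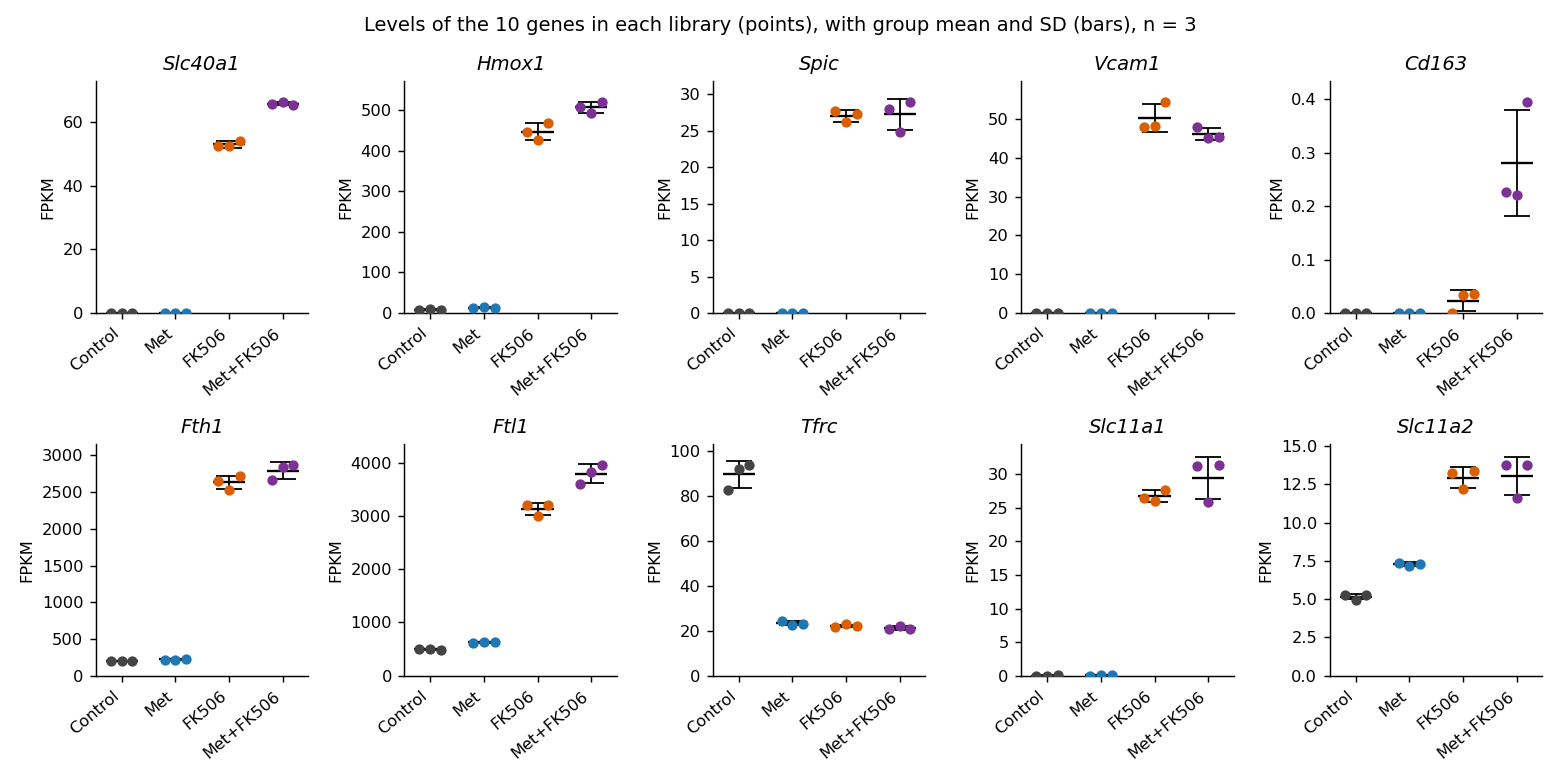
FPKM of each of the 10 genes in every library (points, n = 3 per group, with the group mean and SD); each panel has its own axis from 0. Slc40a1 and Spic are at 0 in all 6 libraries without FK506, and Tfrc is at 82.7 to 93.8 FPKM in Control against 20.6 to 24.2 FPKM in the 9 other libraries.

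Hmox1, the enzyme that turns heme into biliverdin, carbon monoxide and free iron (GRCm38 chr8:75093618-75100593), was present in every library. Its levels were 8.42, 8.67 and 8.23 FPKM in Control and 12.2, 13.9 and 13.0 FPKM with metformin. With FK506 they were 445, 426 and 467 FPKM, and with both drugs 507, 493 and 519 FPKM. The 4 groups did not overlap, in the order Control, metformin, FK506, both drugs. On the log2 scale Hmox1 was 5.51 (SE 0.055) higher with FK506 than in Control, 0.60 (SE 0.055) higher with metformin than in Control, and 0.21 (SE 0.043) higher with both drugs than with FK506. Metformin's log2 difference beside FK506 minus that alone was -0.39 (SE 0.069). By mean FPKM, Hmox1 stood 6877th of the 15197 genes in Control and 113th with FK506.

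Around Hmox1 stand other genes of heme handling, 12 on the list, of which 11 were tested. With FK506, 8 rose and 0 fell against Control (41.3% and 39.6% among all genes), with a median log2 difference of 0.88 over the 11, against 0.02 over all genes. Of the 8, Cd36 (a scavenger receptor, named here after its values were seen) reached the filter's 0.5 FPKM only in libraries with FK506. With metformin, 2 rose and 2 fell (28.6% and 27.4%). Slc48a1, which moves heme out of the lysosome, rose from 25.1 ± 0.394 FPKM in Control to 57.2 ± 2.02 with FK506, and to 70.9 ± 3.00 with both drugs. Its log2 difference was 0.97 (SE 0.037) for FK506 against Control and 0.33 (SE 0.036) for both drugs against FK506 (adjusted p = 3.2e-06, edgeR quasi-likelihood test with Benjamini-Hochberg adjustment). Biliverdin is reduced to bilirubin by 2 enzymes: Blvrb rose with FK506 from 7.46 ± 1.06 to 37.1 ± 1.59 FPKM (4.27-fold), whereas Blvra was at 18.1 FPKM in Control and 19.1 FPKM with FK506 (log2 0.05, SE 0.070, adjusted p = 0.52, edgeR quasi-likelihood test with Benjamini-Hochberg adjustment). Hmox2, the constitutive heme oxygenase, moved little, from 31.1 to 38.3 FPKM (log2 0.13, SE 0.051), and that call was lost with no filter on low values (log2 0.10), without Control replicate 2 (log2 0.09) and without FK506 replicate 1 (log2 0.11).

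Spic (GRCm38 chr10:88675269-88683023) had no read in any of the 6 libraries without FK506. With FK506 it was at 27.8, 26.2 and 27.3 FPKM, and with both drugs at 28.1, 24.9 and 28.9 FPKM. The FK506 groups overlapped each other, with a log2 difference of 0.03 (SE 0.077). Against a floor of 3 counts in each Control library, Spic was at least 573-fold higher with FK506 and at least 586-fold higher with both drugs; against the metformin libraries, both drugs together gave at least 597-fold. These bounds cover counting error only.

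Other transcription factors of macrophages and their relatives were on a list of 10, all tested. With FK506, 7 rose and 3 fell against Control, where 41.3% and 39.6% of all genes did. Of the 7, Cebpa and Tfec (named here after their values were seen) passed the filter only through libraries with FK506. Spi1 (PU.1), which directs myeloid development, rose from 0.806 ± 0.131 to 38.2 ± 1.38 FPKM with FK506 (log2 5.35, SE 0.097), and was lower with both drugs, at 28.6 ± 1.08 FPKM (log2 difference from FK506 of -0.39, SE 0.068). Spib, a B cell and plasmacytoid dendritic cell factor of the same family, went from 1.90 to 42.8 FPKM with FK506 and was at 18.9 FPKM with both drugs. Irf4, an activation-linked factor of lymphocytes, fell from 204 FPKM in Control to 92.3 with metformin and 44.7 with FK506. Spi1 and Spib did not overlap between FK506 alone and both drugs, and Spic did.

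Slc40a1, the only known iron exporter of mammalian cells (GRCm38 chr1:45908070-45926532), also had no read in the Control and metformin libraries. With FK506 it was at 52.3, 52.4 and 54.2 FPKM (9133 to 12116 reads), and with both drugs at 65.6, 66.3 and 65.3 FPKM (10363 to 16073 reads). The last groups did not overlap, and the spread within each was narrow: 53.0 ± 1.06 FPKM and 65.7 ± 0.502 FPKM (SD, n = 3). Both drugs together gave 0.34 (SE 0.038) more than FK506 alone on the log2 scale. Against the floor of 3 counts per library, Slc40a1 exceeded Control by at least 2985-fold with FK506 and by at least 3765-fold with both drugs. Its bound for both drugs against metformin was at least 3837-fold.

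The genes whose pattern over the 12 libraries was most like that of Slc40a1, by Pearson's r of log2(FPKM + 1), were Adgre1 (F4/80, a macrophage surface marker), C1qb (a chain of complement C1q), Csf1r (the receptor for macrophage colony-stimulating factor), Ccnd1 (cyclin D1) and Ccdc88a, with r from 0.99964 to 0.99980. The 12 points share their libraries and fall into 6 at 0 and 6 well above, so r mostly restates that split. Among the members, r with Slc40a1 was 0.999 for Slc11a1, Fth1, Spic and Vcam1, 0.997 for Hmox1, 0.995 for Ftl1, 0.946 for Slc11a2 and -0.614 for Tfrc.

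Ferritin took the largest share of RNA of the 10 genes. Fth1 (GRCm38 chr19:9980600-9985111) was at 200, 203 and 195 FPKM in Control and 216, 219 and 226 FPKM with metformin. It was at 2651, 2532 and 2714 FPKM with FK506 and 2662, 2845 and 2871 FPKM with both drugs. These last groups overlapped, whereas Control, metformin and the FK506 groups were apart. On the log2 scale Fth1 was 3.51 (SE 0.045) higher with FK506 than in Control, 0.11 (SE 0.042) higher with metformin than in Control and 0.11 (SE 0.041) higher with both drugs than with FK506.

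Ftl1 (GRCm38 chr7:45457944-45459886) was at 496, 509 and 488 FPKM in Control and 613, 637 and 633 FPKM with metformin. It was at 3196, 3000 and 3205 FPKM with FK506 and 3603, 3816 and 3957 FPKM with both drugs, and none of the 4 groups overlapped. Its log2 differences were 2.44 (SE 0.044) for FK506 and 0.30 (SE 0.042) for metformin against Control, and 0.30 (SE 0.042) for both drugs against FK506. Metformin's step was therefore of about the same size with and without FK506 for both chains, with log2 differences between the steps of -0.0037 (SE 0.059) for Ftl1 and -0.0044 (SE 0.058) for Fth1. By mean FPKM over the 15197 genes, Ftl1 stood 133rd in Control, 4th with FK506 and 2nd with both drugs, and Fth1 stood 266th, 6th and 6th. The pair held 0.143% to 0.148% of summed FPKM in the Control libraries and 1.59% to 1.69% with both drugs. Rows for ferritin pseudogenes moved alongside, with Ftl1-ps1 at 16.0, 21.5, 106 and 115 FPKM in the order Control, metformin, FK506, both drugs. How reads shared by near-identical copies were counted is not stated, so the levels of Ftl1 and of those rows are uncertain to that extent.

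The chains did not move in proportion. Fth1 over Ftl1 was 0.403, 0.399 and 0.400 in the Control libraries, 0.353, 0.344 and 0.356 with metformin, 0.829, 0.844 and 0.847 with FK506, and 0.739, 0.745 and 0.726 with both drugs. The ratio was lower with metformin than without it in both settings and higher with FK506 than without it, and none of the 4 groups overlapped. Since both chains are read from the same library, the ratio does not depend on how libraries were scaled.

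**Figure D2:**
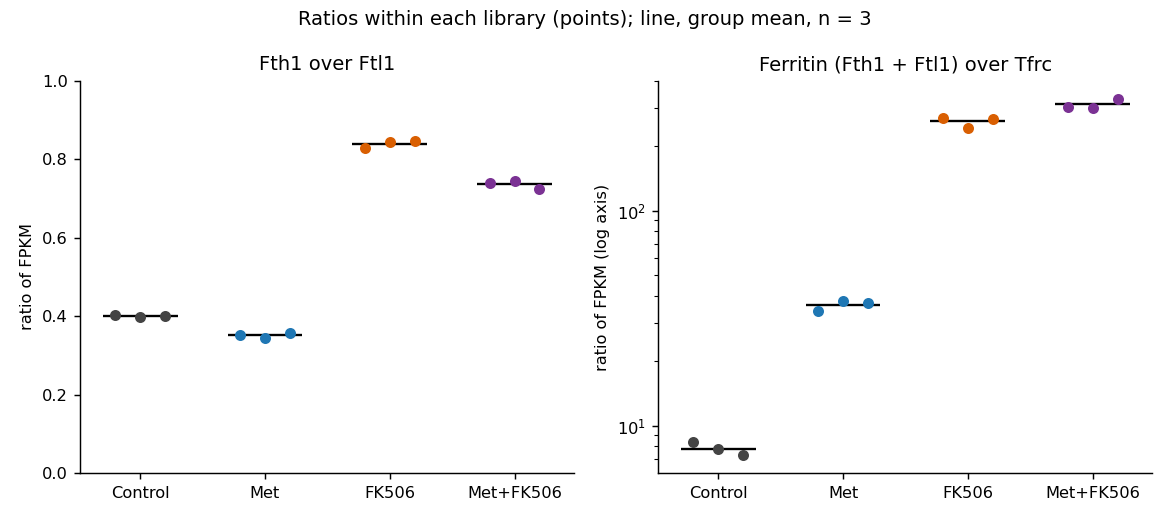
Ratio of Fth1 to Ftl1 (left, linear axis from 0) and of summed ferritin to Tfrc (right, log axis) in each library, from FPKM; lines are group means, n = 3. The left ratio is lower with metformin than without it, both in the absence and in the presence of FK506, and the right ratio climbs from 7.82 in Control to 311 with both drugs.

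Of 9 further genes for iron storage, iron chaperones and ferroxidases, 5 were tested, and with FK506 2 rose and 2 fell (41.3% and 39.6% among all genes). Ncoa4, the receptor that delivers ferritin to the lysosome, rose from 17.0 ± 1.09 FPKM in Control to 24.9 ± 1.07 with metformin (log2 0.51, SE 0.034) and 36.5 ± 0.312 with FK506 (log2 0.84, SE 0.034). Both drugs gave 36.8 ± 1.78 FPKM, with a log2 difference from FK506 of 0.06 (SE 0.033). Pcbp1 and Pcbp2, the poly(C)-binding proteins that load iron into ferritin, fell with FK506, with log2 differences of -0.52 (SE 0.053) and -0.97 (SE 0.031). Pcbp4 was at 15.3 FPKM in Control and 16.6 FPKM with FK506, and its log2 difference of -0.10 (SE 0.062) turned positive when libraries were scaled by their totals. The mitochondrial ferritin Ftmt and the ferroxidase Hephl1 had 3 counts or fewer in all 12 libraries.

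Tfrc (GRCm38 chr16:32608896-32632794) ran the other way. It was at 82.7, 92.0 and 93.8 FPKM in Control, 24.2, 22.6 and 23.0 FPKM with metformin, 21.7, 22.8 and 22.1 FPKM with FK506, and 20.6, 22.3 and 20.7 FPKM with both drugs. Control stood apart from the 9 other libraries, metformin overlapped FK506, and FK506 overlapped both drugs. Both drugs stood apart from metformin alone as lower, by a log2 difference of -0.29 (SE 0.053), which was -0.34 to -0.26 on leaving out 1 library and -0.11 with library totals. Tfrc differed from Control on the log2 scale by -1.98 (SE 0.053) with metformin, -2.23 (SE 0.054) with FK506 and -2.27 (SE 0.054) with both drugs. Adding metformin to FK506 made a log2 difference of -0.04 (SE 0.053). The difference between metformin's log2 effect with and without FK506 was 1.93 (SE 0.074), the largest in size among the 5 members present in every group (Hmox1, Fth1, Ftl1, Tfrc and Slc11a2).

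The genes most like Tfrc over the 12 libraries were Il9 (a T cell cytokine), Muc2, Smtnl2, Bnip3l (a mitophagy receptor) and Bsg (basigin, a chaperone of lactate transporters), with r from 0.9966 to 0.9973. As a description, these patterns too are set by the 3 Control libraries standing apart. T cell activation genes were listed beside Tfrc, 7 in all: with FK506, 1 rose and 5 fell (41.3% and 39.6% among all genes), and with metformin, 1 rose and 3 fell (28.6% and 27.4%). Odc1, the ornithine decarboxylase of polyamine synthesis and the highest of the list, was the gene that rose with FK506. It went from 168 ± 3.84 FPKM in Control to 211 ± 7.28 with FK506 (log2 0.12, SE 0.036), a call lost without the filter on low values, and fell to 106 ± 3.74 with metformin (log2 -0.70, SE 0.037). Cd44, an adhesion receptor, was at 76.1 ± 1.93 FPKM in Control, 78.6 ± 2.19 with metformin and 75.2 ± 2.58 with FK506, and these groups overlapped. Its log2 difference with FK506 was -0.22 (SE 0.037), counted among the 5, and that call was lost with library totals and with limma. Il2ra, the IL-2 receptor alpha chain, fell from 340 ± 2.04 FPKM in Control to 156 ± 1.83 with metformin and 50.8 ± 1.83 with FK506, so that metformin and FK506 gave unlike levels of Il2ra and like levels of Tfrc. Slc3a2, the heavy chain of an amino acid transporter, went from 116 FPKM in Control to 160 with metformin and 84.8 with FK506.

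Set against storage, the uptake gene shifted by over an order of magnitude. Summed ferritin over Tfrc was 8.42, 7.74 and 7.29 in the Control libraries, 34.3, 38.0 and 37.3 with metformin, 269, 243 and 267 with FK506, and 304, 299 and 331 with both drugs. No 2 of the 4 groups overlapped. The step from Control to metformin came mostly from Tfrc, whose mean went from 89.5 to 23.3 FPKM, and the step from metformin to FK506 came from ferritin, since Tfrc was then at 22.2 FPKM.

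Of 12 further genes of transferrin and of other iron uptake, 8 were tested: with FK506, 5 rose and 3 fell (41.3% and 39.6% among all genes), and with metformin, 2 rose and 2 fell (28.6% and 27.4%). Of the 5, Steap3, Lcn2 and Ltf reached 0.5 FPKM only in libraries with FK506, and of the 3, Tfr2 only in libraries without it, so these 4 calls restate the filter (the 4 are named here after their values were seen). Trf, transferrin itself, rose with metformin from 0.454 ± 0.112 to 0.997 ± 0.256 FPKM (log2 1.11, SE 0.19) and with FK506 to 5.95 ± 0.407 FPKM (log2 3.49, SE 0.17). It was higher still with both drugs, at 11.0 ± 0.383 FPKM (log2 0.91, SE 0.135 against FK506, adjusted p = 8.0e-05, edgeR quasi-likelihood test with Benjamini-Hochberg adjustment). Slc39a8 and Slc39a14 (ZIP8 and ZIP14), which take up iron not bound to transferrin, fell with FK506, with log2 differences of -2.65 (SE 0.092) and -0.92 (SE 0.058), and with metformin, with -0.66 (SE 0.084) and -0.31 (SE 0.057). Mcoln1, a lysosomal channel that passes iron, rose with metformin, from 14.3 to 18.7 FPKM, and with FK506, to 27.5 FPKM.

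Slc11a1 and Slc11a2 are related proton-coupled metal transporters. Slc11a1 (NRAMP1) sits in the phagosome membrane of macrophages, and Slc11a2 (DMT1) carries iron out of the endosome after Tfrc has brought it in. Slc11a1 (GRCm38 chr1:74375014-74386057) had 0, 0 and 7 reads in Control and 0, 10 and 5 reads with metformin. It was at 26.5, 26.1 and 27.7 FPKM with FK506 and 31.2, 25.9 and 31.4 FPKM with both drugs, and these groups overlapped. From pooled counts Slc11a1 was 1338-fold higher with FK506 than in Control (95% exact interval 649 to 3328, counting error only), and the 7 reads of the Control group came from 1 library. Without Control replicate 2 the pooled fold was 877, and without Control replicate 3 the bound was at least 1009. The log2 difference between both drugs and FK506 was 0.16 (SE 0.11).

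Slc11a2 (GRCm38 chr15:100387898-100424209) was at 5.25, 4.96 and 5.25 FPKM in Control and 7.38, 7.18 and 7.32 FPKM with metformin. It was at 13.3, 12.2 and 13.4 FPKM with FK506 and 13.7, 11.6 and 13.8 FPKM with both drugs, with overlap between the last groups only. Its log2 differences from Control were 0.41 (SE 0.062) with metformin and 1.09 (SE 0.061) with FK506, and the difference of both drugs from FK506 was 0.03 (SE 0.058). So Slc11a2, unlike Tfrc on the same endosomal route, was higher in all 3 drug groups than in Control. Slc11a1 over Slc11a2 was at most 0.00974 in the libraries without FK506, 2.07 ± 0.0708 with FK506 and 2.26 ± 0.0250 with both drugs, the last groups being apart. Metformin's log2 difference in Slc11a2 beside FK506 minus that alone was -0.38 (SE 0.085).

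Vcam1 is an adhesion molecule that red pulp macrophages share with endothelial and stromal cells (GRCm38 chr3:116110020-116129688). It had 7, 6 and 4 reads in Control and 0, 0 and 4 reads with metformin. With FK506 it was at 48.0, 48.3 and 54.4 FPKM, and with both drugs at 48.0, 45.1 and 45.5 FPKM. The FK506 groups did not overlap, by a narrow margin: the highest library with both drugs lay just under the lowest with FK506, and the log2 difference was -0.10 (SE 0.061). From pooled counts Vcam1 was 1503-fold higher with FK506 than in Control (95% exact interval 939 to 2581), and 4.31-fold lower with metformin than in Control (1.41 to 17.6), a value that rests on 17 and 4 reads. All 4 integrin chains on the list of VCAM1 receptors rose with FK506 against Control, where 41.3% of all genes rose, and with both drugs against FK506, where 15.6% did. One of the chains, Itga9, passed the filter only through libraries with FK506. Itga4, the alpha chain of VLA-4, went from 4.21 ± 0.235 FPKM in Control to 52.0 ± 3.22 with FK506 and 61.3 ± 1.22 with both drugs.

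Cd163, the scavenger receptor for hemoglobin bound to haptoglobin (GRCm38 chr6:124304636-124330529), was the lowest of the 10. It had no read in the Control and metformin libraries, 0, 10 and 8 reads with FK506, and 57, 72 and 84 reads with both drugs. The FK506 groups did not overlap, and pooled counts were 12.6-fold higher with both drugs than with FK506 (95% exact interval 7.78 to 21.7). The library with no read bears on that value: without FK506 replicate 1 the pooled fold was 7.86, and without FK506 replicate 2 it was 18.4. At 0.227, 0.221 and 0.395 FPKM with both drugs, Cd163 stayed far under the other members in the same libraries, the next lowest being Slc11a2 at 13.0 ± 1.25 FPKM. It was not tested, because it did not pass the filter.

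Metformin alone was compared with Control for the same genes. Of the 9 that passed the filter, 4 had passed only through their FK506 libraries and give little or nothing to compare here: Slc40a1 and Spic had no read in either group, Slc11a1 had 7 and 15 reads in all, and Vcam1 had 17 and 4. Of the 5 genes present in both groups, 4 were past the threshold as higher than in Control (Hmox1, Fth1, Ftl1 and Slc11a2) and Tfrc as lower, and the groups did not overlap for any of these 5. Among all genes 28.6% were past it as higher and 27.4% as lower, and 65.0% did not overlap. The members were chosen with these values known, so nothing is read from these calls. Vcam1 was also past the threshold as lower, on reads that in the metformin group all came from 1 library, and its groups overlapped.

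For both drugs against FK506, 3 of the 9 were past the threshold as higher (Slc40a1, Ftl1 and Hmox1) and 0 as lower. Of all genes, 15.6% were past it as higher and 15.0% as lower. Nothing is read from these calls, because the members were chosen with these values known. The groups did not overlap for 5 of the 10 genes: Slc40a1, Hmox1, Ftl1 and Cd163 were higher and Vcam1 lower, and the share of all tested genes without overlap was 38.6%. This comparison and that of metformin with Control share no library. Comparisons against the same Control samples do, and their values stand side by side here without any measure of likeness.

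**Figure D3:**
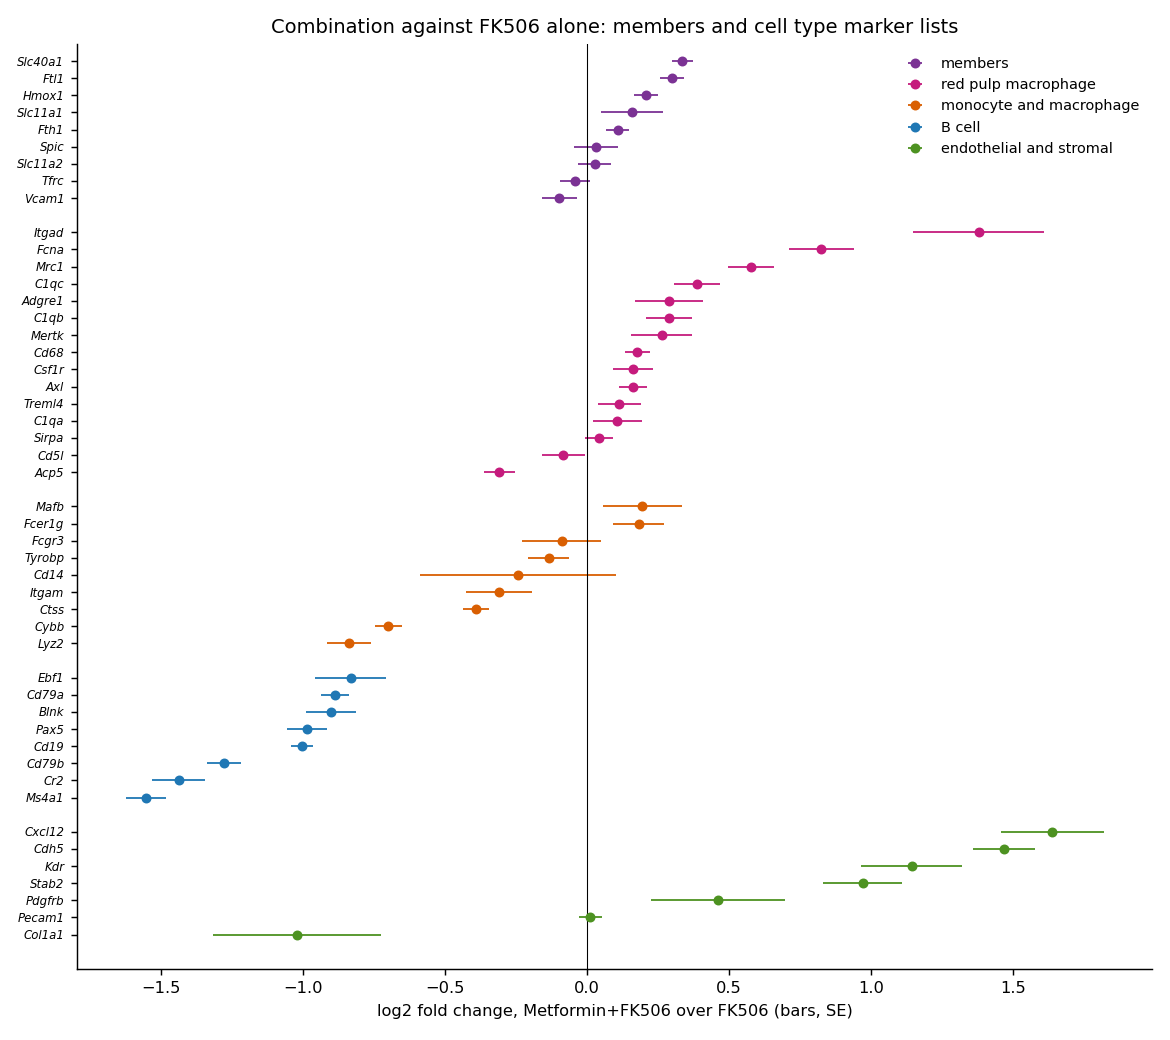
Log2 fold change of both drugs over FK506 alone (points, SE as bars) for the 9 members that passed the filter and for the tested genes of 4 marker lists. Slc40a1, Ftl1 and Hmox1 lie between 0.21 and 0.34, most red pulp macrophage markers lie at or above 0, and all 8 B cell markers lie below 0.

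Markers of macrophages were compared in the same libraries. The list of red pulp macrophage markers holds 15 genes beside the members, all tested, and their sum was 119 ± 3.79 FPKM in Control, 55.6 ± 2.45 with metformin, 548 ± 19.3 with FK506 alone and 579 ± 16.2 with both drugs. In the Control libraries that sum was nearly all Acp5 (62.0 FPKM) and Axl (52.6 FPKM, chosen here after its values were seen), and up to 9 of the 15 genes were at 0. With FK506 against Control, 13 of the 15 rose and 1 fell (41.3% and 39.6% among all genes), but 12 of the 13 reached the filter's 0.5 FPKM only in libraries with FK506, so nothing is read from that count. With both drugs against FK506, 7 of the 15 rose and 1 fell, and 0 of the 9 tested monocyte and macrophage markers rose and 3 fell, where 15.6% of all genes rose and 15.0% fell. The difference between these lists was not tested. Cd68, a lysosomal glycoprotein of macrophages, went from 4.29 FPKM in Control to 113 ± 3.80 with FK506 and 126 ± 5.78 with both drugs (log2 0.18, SE 0.0435 between the last). Cd5l, secreted by tissue macrophages, was at 97.9 ± 6.00 and 90.9 ± 1.78 FPKM in those groups, and Sirpa, the receptor for CD47, at 60.3 ± 4.73 and 62.2 ± 2.51 FPKM. Lyz2, lysozyme of monocytes, macrophages and neutrophils, fell from 981 ± 10.8 FPKM with FK506 to 539 ± 64.5 with both drugs (log2 -0.84, SE 0.078). Ctss, a lysosomal protease of antigen-presenting cells, fell from 302 ± 13.0 to 226 ± 6.21 FPKM.

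Acp5, a phosphatase known from osteoclasts and red pulp macrophages, was the marker without a clear FK506 difference. It was at 62.0 FPKM in Control, 25.4 with metformin, 72.8 with FK506 alone and 57.9 with both drugs. Its log2 difference between FK506 and Control was -0.05 (SE 0.054), and the sign turned to 0.17 when libraries were scaled by their totals.

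Divided by the summed monocyte and macrophage markers of the same library, these members were higher with both drugs than with FK506, with no overlap between groups. The ratio of group means was 1.94 for Slc40a1, 1.89 for Ftl1, 1.77 for Hmox1, 1.72 for Slc11a1, 1.65 for Fth1, 1.57 for Spic and 1.44 for Vcam1. Most of that sum was Lyz2. Without Lyz2, an alternative chosen after seeing the data, the ratios were 1.52 for Slc40a1, 1.48 for Ftl1, 1.39 for Hmox1, 1.35 for Slc11a1, 1.302 for Fth1, 1.23 for Spic and 1.13 for Vcam1, and the groups still did not overlap. Divided by the 15 other red pulp macrophage markers, the same 7 genes were nearer to 1: 1.17 for Slc40a1, 1.14 for Ftl1, 1.07 for Hmox1, 1.04 for Slc11a1, 1.00 for Fth1, 0.951 for Spic and 0.870 for Vcam1. There the groups overlapped for Slc11a1, Fth1 and Spic. That sum includes Acp5, which was at 72.8 FPKM with FK506 and 57.9 with both drugs. Ratios without Acp5 were not computed. The part that the share of each cell type plays in these ratios was not tested.

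**Figure D4:**
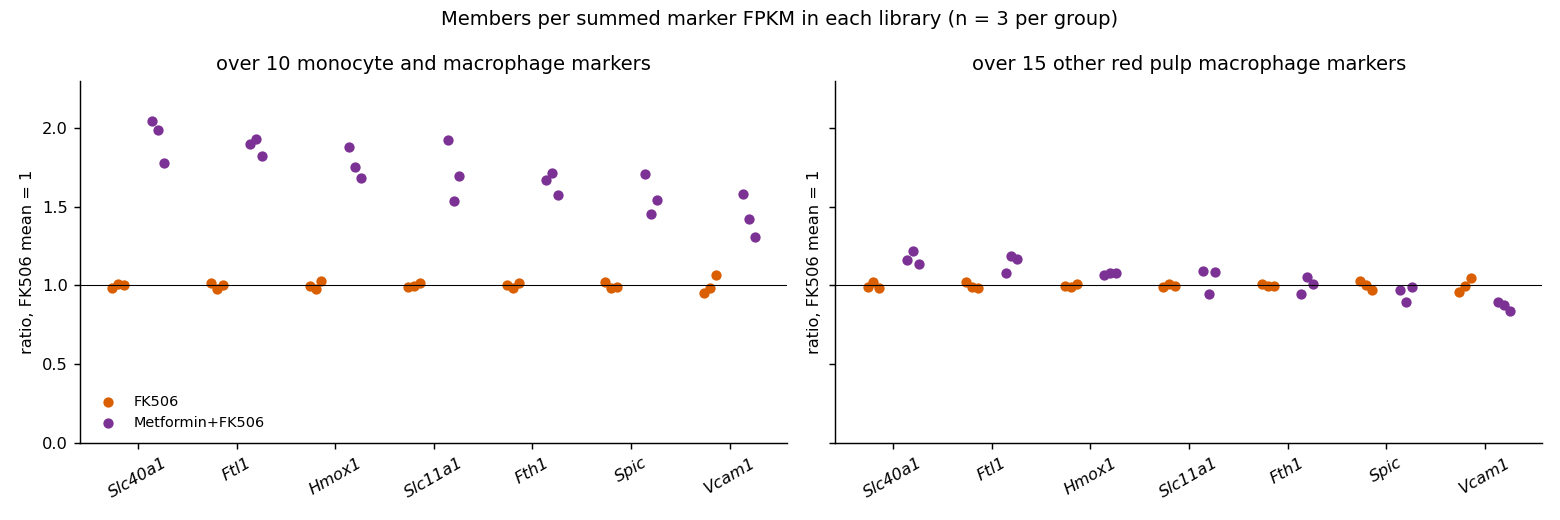
FPKM of 7 members over the summed FPKM of 10 monocyte and macrophage markers (left) or of 15 other red pulp macrophage markers (right) in each FK506 and Metformin+FK506 library, scaled so that the FK506 mean is 1. All Metformin+FK506 points lie above the FK506 points on the left, and on the right only those of Slc40a1, Ftl1 and Hmox1 do.

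Of 12 listed genes that sense iron or belong to the axis of the hormone hepcidin, 8 were tested, and with FK506 5 rose and 2 fell (41.3% and 39.6% among all genes). Ireb2 (iron regulatory protein 2) was at 14.7 FPKM in Control and 17.3 FPKM with FK506, a log2 difference of 0.00 (SE 0.055). Aco1 (iron regulatory protein 1 when it lacks its iron-sulfur cluster) rose with FK506 (log2 0.26, SE 0.043) and fell with metformin (log2 -0.19, SE 0.044). Fbxl5, the iron-sensing subunit of the ligase that removes Ireb2 protein, rose with metformin by 0.29 (SE 0.048) and with FK506 by 0.17 (SE 0.048). Bmp6, the growth factor that induces hepcidin in the liver, had 3 counts or fewer in each Control and metformin library. It was at 2.25 ± 0.0586 FPKM with FK506, at least 112-fold above Control. With both drugs it was at 6.30 ± 0.267 FPKM (log2 1.51, SE 0.11 against FK506). Bmp6 was named by its mean over all 12 libraries, which its level with both drugs raised, so no p is given for that difference. The remaining tested genes, named here after their values were seen, were low. Bmpr1a, a receptor for bone morphogenetic proteins, fell from 2.96 FPKM in Control to 1.07 with metformin (log2 -1.47, SE 0.101) and 0.529 with FK506 (log2 -2.56, SE 0.107). Hfe, the gene mutated in hereditary hemochromatosis, was at 0.108 FPKM in Control, 0.0251 with metformin and 0.935 with FK506. Neo1 (neogenin) was at 0.0789 FPKM in Control and 0.616 with FK506, and Erfe (erythroferrone) at 0.700 and 0.0965 FPKM. Bmp6, Hfe and Neo1 reached the filter's 0.5 FPKM only in libraries with FK506 and Erfe only in libraries without it, so their differences between FK506 and Control restate the filter. The hepcidin family gene Hamp2 had no read in any library.

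All 13 listed genes of mitochondrial iron and iron-sulfur clusters were tested, and with FK506 4 rose and 8 fell (41.3% and 39.6% among all genes), with a median log2 difference of -0.35. Hspa9, a mitochondrial chaperone used in cluster assembly, rose with metformin from 168 ± 4.07 to 198 ± 2.86 FPKM and fell with FK506 to 59.0 ± 1.16 FPKM (log2 -1.72, SE 0.034). Iscu, the scaffold on which clusters are built, went the other way, from 16.6 ± 2.27 FPKM in Control to 46.5 ± 4.94 with FK506 (log2 1.33, SE 0.0715). Isca2, a carrier of clusters, fell with metformin (log2 -0.43, SE 0.063) and with FK506 (log2 -0.83, SE 0.064). Slc25a28 (mitoferrin 2), which imports iron into the mitochondrion, rose with metformin by 0.63 (SE 0.050) and with FK506 by 0.20 (SE 0.050).

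Over the 5 iron and heme lists together, 45 of 58 genes were tested. With FK506 24 rose and 15 fell, with metformin 11 rose and 14 fell, and with both drugs against FK506 8 rose and 3 fell. Among all genes the shares called higher and lower were 41.3% and 39.6% with FK506, 28.6% and 27.4% with metformin, and 15.6% and 15.0% for both drugs against FK506. Of the 45, 7 reached the filter's 0.5 FPKM only in libraries with FK506, alone or with metformin, and are all among the 24. Another 2 reached it only without FK506 and are among the 15. The filter itself made calls for these 9 likely in the comparison of FK506 with Control, so nothing is read from them. The median log2 differences of the 45 were 0.17, 0.00 and 0.06, against 0.02, 0.01 and 0.00 over all genes. The interaction of metformin and FK506, which asks whether metformin's log2 effect differs with FK506 present, was past the threshold for 19 of the 45, where 46.5% of all genes were.

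**Figure D5:**
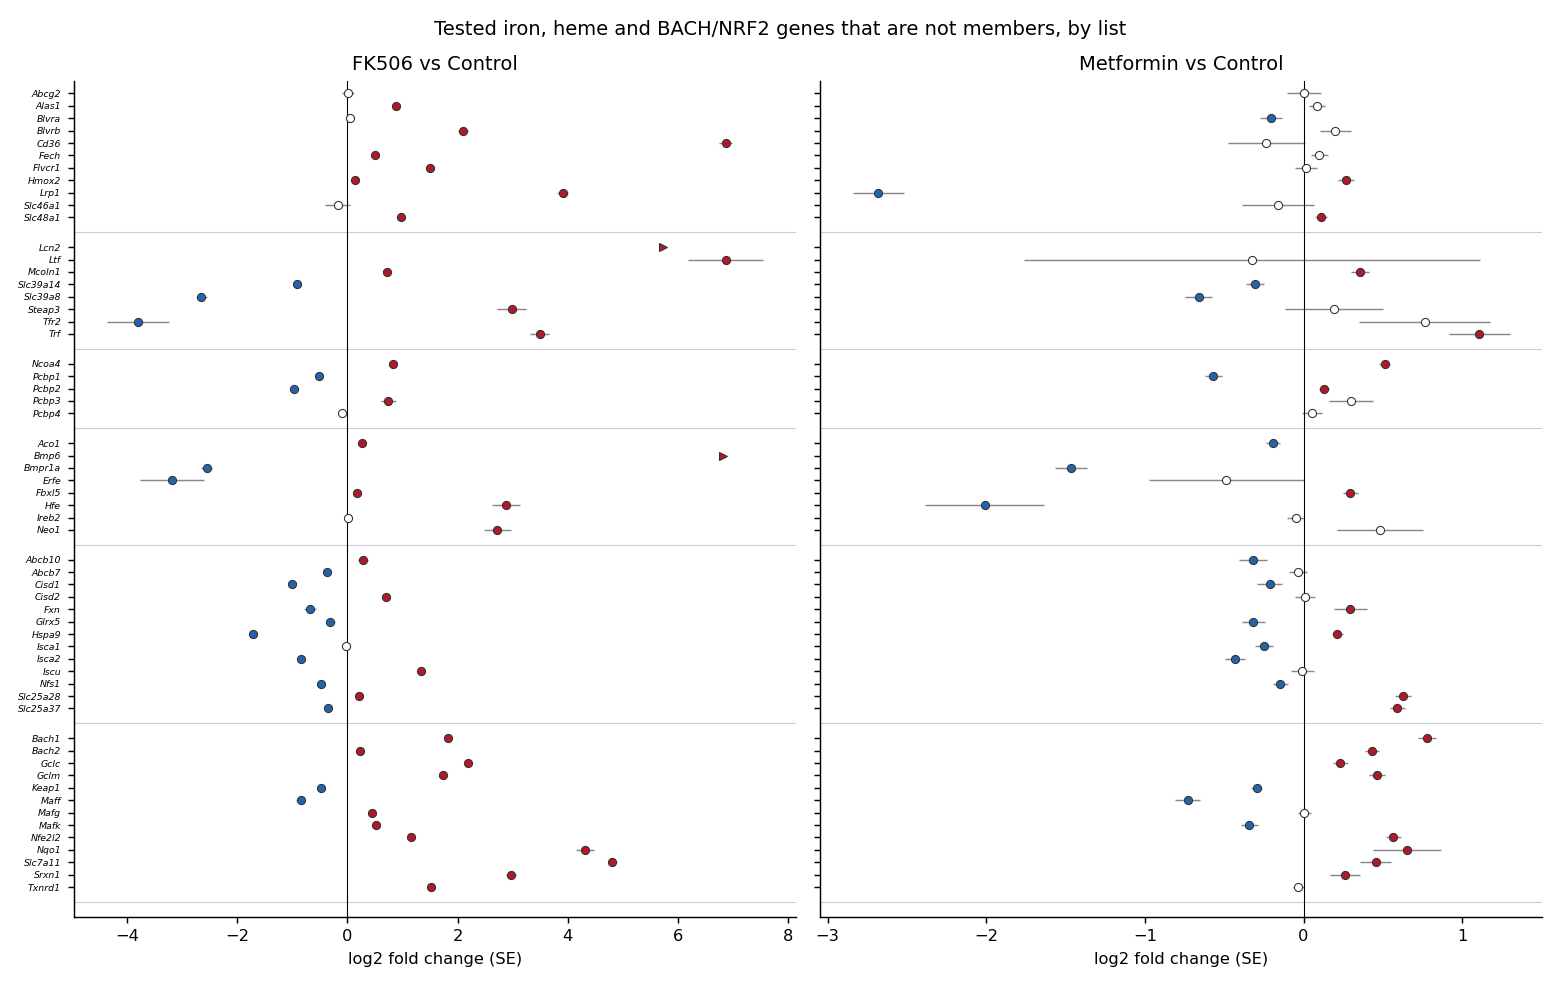
Log2 fold change with SE of each tested gene of the iron, heme and BACH and NRF2 lists, for FK506 (left) and metformin (right) against Control; the panels have different axes. Filled points passed the test (red higher, blue lower), open points did not, and triangles are lower bounds against a Control group at the floor; grey lines part the 6 lists, which run from heme handling at the top to BACH and NRF2 at the bottom.

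Hmox1, Fth1, Ftl1 and Spic are known targets of the heme-binding repressor Bach1, and the first 3 also of the oxidant-sensing activator NRF2 (Nfe2l2). Of the 13 listed genes of this axis, 11 rose and 2 fell with FK506 (median log2 difference 1.53), 8 rose and 3 fell with metformin, and 6 rose and 0 fell with both drugs against FK506. The shares of all genes that rose and fell were 41.3% and 39.6%, 28.6% and 27.4%, and 15.6% and 15.0% in the same order. Of the 11, Slc7a11 (the cystine transporter chain, named here after its values were seen) passed the filter only through libraries with FK506. Nfe2l2 rose from 13.6 ± 0.710 FPKM in Control to 20.4 ± 0.600 with metformin and 35.8 ± 0.504 with FK506. Keap1, which marks NRF2 for destruction, fell with metformin, from 25.2 to 20.5 FPKM, and with FK506, to 21.1 FPKM. Of the target genes, Gclc (glutathione synthesis) rose with FK506 by a log2 value of 2.19 (SE 0.046) and with metformin by 0.23 (SE 0.048), and Txnrd1 (thioredoxin reductase) rose with FK506 by 1.53 (SE 0.032) and was level with metformin, at 22.6 FPKM in both groups. Bach1 itself, chosen here after its values were seen, rose from 2.52 FPKM in Control to 4.42 with metformin, 10.4 with FK506 and 12.7 with both drugs.

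Scaling bears on every comparison of an FK506 group with a group without FK506. When libraries were scaled by their totals in place of edgeR's TMM factors, the median log2 difference of all genes between FK506 and Control moved from 0.02 to 0.25, and the share of calls that were higher from 51.1% to 62.1%. Under that scaling the log2 differences of Hmox1, Fth1, Ftl1, Tfrc and Slc11a2 between FK506 and Control were 5.73, 3.73, 2.66, -2.003 and 1.31. For both drugs against FK506 the same change moved the median of all genes by under 0.01.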

How the data were processed

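RNA of 12 samples of mouse splenic CD4+ T cells (4 groups of 3) was sequenced. The authors deposited raw read counts and FPKM per gene. Per the submitters' processing notes the tools were bcl2fastq 2.20.0, Trimmomatic, HISAT2 2.1.0 and StringTie 2.1.3b with mm10. How shared reads and strand were treated is not given in the sources used here. The 12 TPM columns were not used. Of 45777 genes, 18141 were at 0 in every library, and 15197 with 0.5 FPKM or more in 3 or more libraries were tested. The deposited counts (43402632 to 64290105 per library) were fitted in all 4 groups together with edgeR 4.0.16 (TMM, quasi-likelihood test, Benjamini-Hochberg adjustment over all genes tested, 8 residual degrees of freedom), after checks on simulated data. Alternatives used DESeq2 1.42.0, limma 3.58.1, other scalings and filters, a replicate block and leaving out each library. Members and lists were chosen with earlier results of these data known. Named list genes are the 4 of each list with the highest mean FPKM over the 12 libraries, defining markers at 0, and for Slc40a1 and Tfrc the 5 genes most like them. Fold bounds set a group at 0 to 3 counts per library. Intervals cover counting error only, and p-values measure only the spread between these samples.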

Additional observations from a re-analysis of the deposited data

Results flagged for a closer look

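For 19 of the 45 tested genes of the iron and heme lists, metformin's effect differed with FK506 present and absent by the interaction term (edgeR, quasi-likelihood, adjusted over all genes by Benjamini-Hochberg). As log2 differences (metformin's effect with FK506 minus its effect without), 11 were above 0: Lrp1 2.84, Hfe 2.41, Bmpr1a 1.75, Slc39a8 0.75, Pcbp1 0.61, Slc39a14 0.39, Blvra 0.36, Flvcr1 0.35, Isca2 0.31, Isca1 0.28 and Slc48a1 0.22. The other 8 were below 0: Slc25a28 -0.51, Slc25a37 -0.51, Ncoa4 -0.46, Hmox2 -0.34, Iscu -0.26, Cisd2 -0.22, Fbxl5 -0.21 and Pcbp2 -0.16. Hfe passed the filter only through its FK506 libraries and was at most 0.144 FPKM in Control and 0.0286 FPKM with metformin. Its value therefore rests on levels under the filter, with 68 reads in Control and 17 with metformin over 3 libraries each. Lrp1 was also low without FK506, at most 0.639 FPKM in those libraries. The calls for Slc39a14 and Pcbp2 were lost with limma on log2 FPKM, and that for Iscu was lost without the filter on low values, with limma, with the replicate block and on leaving out any 1 of 10 of the 12 libraries, Control replicate 2 and metformin replicate 3 being the exceptions. That for Cisd2 was lost without the filter and on leaving out any 1 library but metformin replicate 1 or Metformin+FK506 replicate 2. Across all 15197 genes, 46.5% were past the same threshold, a share that 19 of 45 does not exceed.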

How the results depend on the processing

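Every alternative count of changed genes, 250 in all, stayed within 1.5 times its main value. Leaving out each library in turn gave, as genes changed over all genes and then over the iron and heme lists, 11901 to 12477 and 38 to 39 for FK506 against Control (main 12297 and 39), 7753 to 8821 and 22 to 25 for metformin against Control (8511 and 25), 11990 to 12392 and 37 to 39 for both drugs against Control (12412 and 39), 3672 to 4745 and 10 to 14 for both drugs against FK506 (4660 and 11), 11427 to 11868 and 38 to 39 for both drugs against metformin (11880 and 38), and 6485 to 7093 and 17 to 19 for the interaction (7064 and 19). Scaling by library totals changed the split of calls from 6283 higher and 6014 lower to 7754 and 4728 for FK506 against Control, from 6401 and 6011 to 7773 and 4813 for both drugs against Control, and from 6125 and 5755 to 7509 and 4553 for both drugs against metformin. Samples of the same replicate number did not deviate together (18 pairs, r from -0.071 to 0.050), so no pairing by number was detected. With 3 samples per group, this check cannot show that same-numbered samples were unrelated. With the replicate block the counts were 12198 and 39, 8312 and 25, 12308 and 38, 4326 and 11, 11749 and 38, and 6792 and 18, in the same order.

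Signs turned in 8 of the log2 differences of single genes, all close to 0 and not past the threshold. For FK506 against Control, Pcbp4 went to 0.12 with library totals and to 0.11 with limma at either pseudocount, 1 or 0.1. Acp5 went to 0.17 with library totals and to 0.23 with limma at either pseudocount. Ireb2 went to -0.029 without a filter on low values, and leaving out 1 library gave -0.035 to 0.041. For both drugs against FK506, Sirpa ranged from -0.013 to 0.108 on leaving out 1 library. The cause was not tested. Spic and Slc11a2, which overlapped between both drugs and FK506, reached -0.015 and -0.025 there on leaving out 1 library. The interaction ranged from -0.033 to 0.035 for Fth1 and from -0.036 to 0.038 for Ftl1 in the same way. Over all alternatives for single genes, 54 values lost a call and 4 gained one. Another 103 values moved without a call being lost or gained. Dividing by monocyte and macrophage markers without Lyz2, added after seeing the data, lowered the ratios of 7 members but kept them above 1. Depth limits Cd163, with at most 84 reads in a library, and the Control and metformin levels of Vcam1 and Slc11a1.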
